A study of Mus musculus with 9 samples.

Results

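The chains described here are 10 cytokine receptor subunits of the regulatory T (Treg) cell that lie outside the IL-2 and IL-1 receptor families: Il4ra, Il6ra, Il6st, Il7r, Il9r, Il10ra, Il21r, Il27ra, Ifngr1 and Il12rb1. They were taken by symbol, not by level, and all 10 were present among the 13698 genes of the table. RNA of Treg cells sorted from spleen and lymph node of mice on a C56Bl6/129 mix background was sequenced in 9 libraries, 3 per group, each named by a mouse number, and the series' design text calls the mice female. The deficient cells were YFP+MHCII- cells of genotype LRFffThpokff Foxp3 Cre-YFP/X (mice 142114, 232614 and 432614), in which Cre made from a Foxp3 allele is to remove the factors Thpok (gene Zbtb7b) and LRF (gene Zbtb7a). The genetic controls were YFP+MHCII- cells of genotype WT Foxp3 Cre-YFP/X (mice 124, 8619 and 8800), which share the Cre allele and the gate and keep both factors. The animal controls were YFP-MHCII-CD25hi cells from the same mice as the deficient cells; they used the unmodified Foxp3 allele, kept both factors and were the only group gated on CD25, the product of Il2ra. The labels give no age.

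A cytokine receptor is assembled from chains, and each cytokine binds its own combination of them. Class I chains (here all but Il10ra and Ifngr1) include those that pair with the common gamma chain Il2rg to bind IL-4, IL-7, IL-9 or IL-21, and those that pair with the signal transducer gp130, encoded by Il6st, to bind IL-6 or IL-27. The class II chains Il10ra and Ifngr1 bind IL-10 and interferon gamma and pair with Il10rb and Ifngr2. None of these chains is a kinase: the signalling chains hold JAK kinases (Jak1, Jak2, Jak3 or Tyk2), which activate STAT transcription factors. In Treg cells IL-10 and IL-27 receptors are known for restraining inflammation, IL-6 receptor for opposing Foxp3, and IL-7 receptor for being lower than in conventional T cells.

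Levels are the deposited log2 CPM values (CPM is read counts per gene scaled to one total, here also quantile-normalized across libraries) or the CPM they stand for, and a difference is in log2 CPM with its standard error (SE). Where genes are said to average 10 CPM, the average is the mean of log2 CPM over the 9 libraries, turned back to CPM. Tests are limma's moderated test on all 13698 genes, two-sided, with Benjamini-Hochberg adjustment and a threshold of 0.05. The read depth of each library is unknown, since linear values sum to nearly the same total in every library (999252 to 999256), so no counting interval is given. The lowest value in the table, 0.00457 CPM, was shared by between 8.001% and 11.4% of genes per library. Zbtb7b lay between 0.147 and 0.366 CPM in deficient cells, between 92.1 and 149 CPM in genetic controls and between 76.9 and 106 CPM in animal controls. Zbtb7a lay between 78.8 and 103 CPM in deficient cells, between 69.5 and 111 CPM in genetic controls and between 90.6 and 128 CPM in animal controls; the values are per gene and the deleted exons are not given, so they do not test its deletion. The summed level of 10 T cell markers was between 7708 and 9173 CPM in all 9 libraries. Of these markers 1, Cd3e, was called higher in deficient cells than in genetic controls (0.336% of all genes were). Foxp3 averaged 32.2 ± 5.02 CPM in deficient cells, 33.3 ± 7.38 CPM in genetic controls and 905 ± 132 CPM in animal controls (SD, n = 3 each). The sum of 8 Treg defining markers was 1425 to 1594 CPM in deficient cells, 2159 to 2601 CPM in genetic controls and 3819 to 4216 CPM in animal controls, with none at the lowest value. Against the genetic controls Capg and Nrp1 were called lower (0.533% of all genes were), and Foxp3, Ctla4, Ikzf2, Ikzf4 and Tnfrsf18 overlapped. Against the animal controls Foxp3, Capg, Nrp1 and Il2ra were called lower (0.584% of all genes were). Foxp3 was also called lower in genetic than in animal controls (0.0365% of all genes were). Deficient cells and genetic controls used the Foxp3 Cre-YFP allele, and animal controls the unmodified allele. The part of the allele in the Foxp3 level was not tested. In animal controls Foxp3 made 754 to 999.7 CPM of the Treg marker sum. In these bulk samples, fewer cells that make a transcript and less transcript per cell cannot be told apart.

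Deficient cells had lower Il9r than either control, and lower Il6ra than the animal controls; no chain was called higher. Against the genetic controls 1 of 10 chains passed the test, Il9r, where 0.869% of all genes did (0.336% higher and 0.533% lower). Against the animal controls 2 of 10 passed, Il9r and Il6ra, where 0.891% of all genes did (0.307% higher and 0.584% lower). The 2 comparisons share the deficient libraries, and Il9r was the chain called with the same sign in both, as were 0.577% of all genes. Without the trend of limma's prior the split of called genes against the genetic controls was 46 higher and 39 lower, and with it 46 higher and 73 lower. At an unadjusted p under 0.05, 7 chains differed from the genetic controls (10.6% of all genes) and 6 from the animal controls (11.9%); the chains were chosen with earlier results of these data known, so these counts are a description. Groups did not overlap for 6 chains against the genetic controls (15.7% of all genes) and for 5 against the animal controls (15.9%). The median difference of the 10 chains was -0.72 against the genetic controls and -0.67 against the animal controls, where the median of all genes was 0.04 in both.

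**Figure D1:**
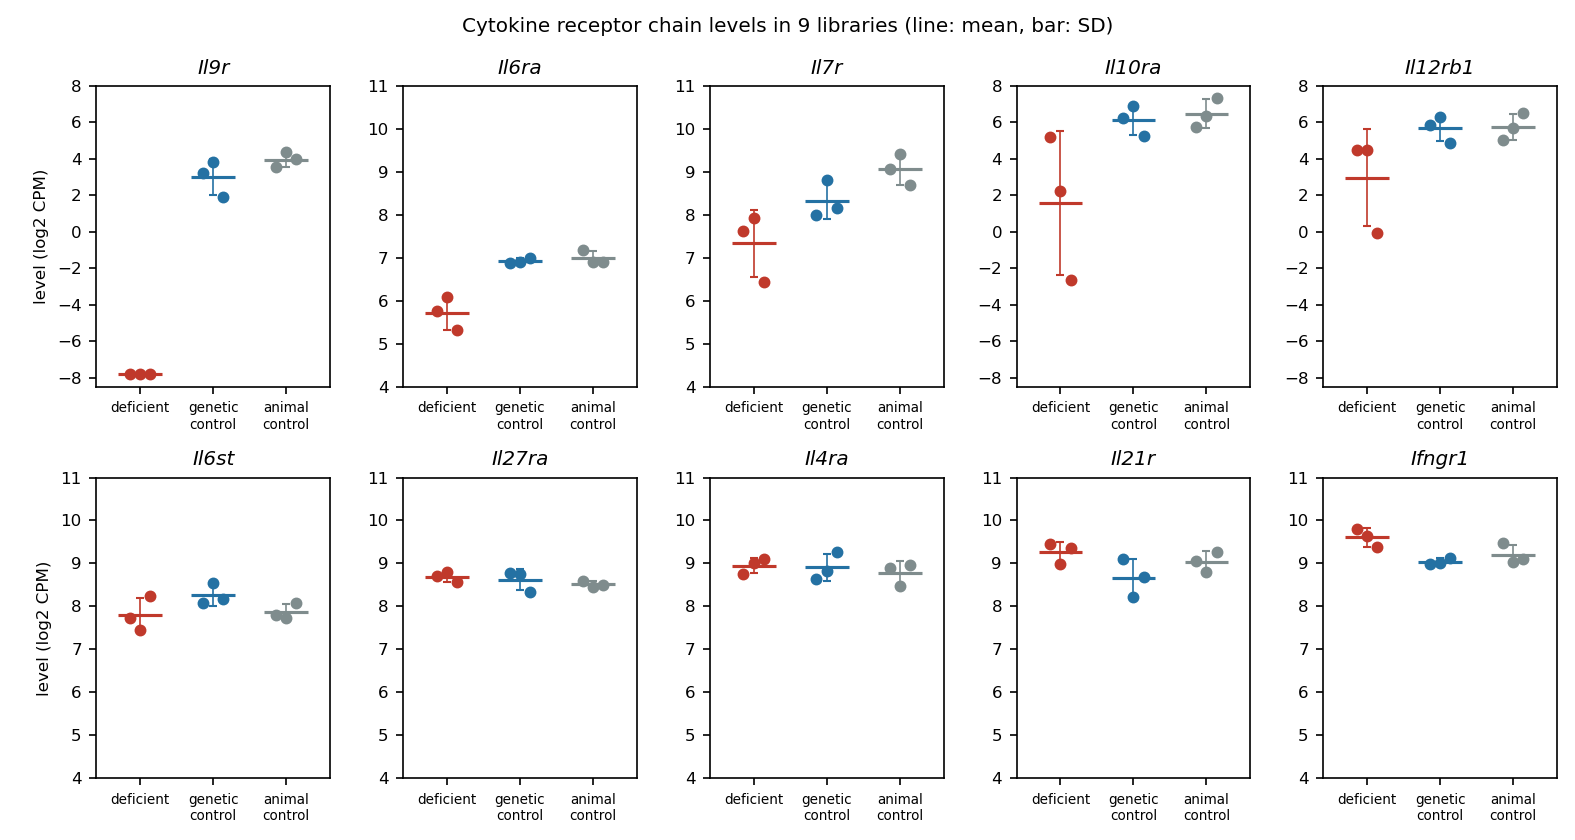
Level of each of the 10 receptor chains in log2 CPM (vertical axis) in 3 deficient, 3 genetic control and 3 animal control libraries; each point is a library, lines are means and bars are SD. Il9r lies at the table's lowest value, 0.00457 CPM, in all 3 deficient libraries, and Il6ra in deficient cells (39.8 to 67.9 CPM) lies below both controls (117 to 145 CPM).

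Among the chains that pair with the common gamma chain, Il9r, the specific subunit of the IL-9 receptor, stood at the lowest value of the table, 0.00457 CPM, in all 3 deficient libraries. Genetic controls had 9.43, 14.5 and 3.78 CPM (mice 124, 8619 and 8800) and animal controls 11.6, 20.5 and 15.9 CPM (mice 142114, 232614 and 432614). Every control library was thus above every deficient one, though Il9r was also the lowest of the 10 chains per length in the controls. Il9r fell in deficient cells against genetic controls (limma adjusted p = 0.00451) and against animal controls (adjusted p = 0.0028). No fold is given, since it would rest on the lowest value. The adjusted p-values rest on that value too, since all 3 deficient libraries share it and their SD is 0. Both calls held in all 9 fits that left out 1 library, with adjusted p up to 0.0384 and 0.0231. With log2(CPM + 1) in place of the deposited values the call against the genetic controls was lost (adjusted p = 0.0627), as it was on the 6 compared libraries alone (adjusted p = 0.0562), while the difference from the animal controls was still called under both. Without both genetic control 8619 and animal control 232614 neither was called (adjusted p = 0.0838 and 0.0597).

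Il9r lies on chromosome 11 (32187541 to 32200279, minus strand; this and all gene positions are from GRCm38). Its 250 bases upstream of the RefSeq start are shown because it was the chain at the lowest value in every deficient library. Capitals mark matches to 3 motifs searched on both strands, the RUNX core TGTGGT, the STAT motif TTCNNNGAA and the forkhead motif GTAAACA.
Il9r, GRCm38.p6 chr11:32200280-32200529, minus strand: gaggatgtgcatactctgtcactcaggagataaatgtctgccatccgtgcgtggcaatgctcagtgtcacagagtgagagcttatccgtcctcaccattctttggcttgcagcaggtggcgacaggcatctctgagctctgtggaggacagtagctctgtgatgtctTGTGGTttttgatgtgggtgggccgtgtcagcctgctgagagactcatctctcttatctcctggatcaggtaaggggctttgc
The window held a single match, the RUNX core at bases -83 to -78 counted from the start. Of 32851 windows of the same length before RefSeq starts, 14.05% held that motif, 7.02% the STAT motif and 3.17% the forkhead motif. Of the 10 chains, 7 had an entry in the RefSeq table. Il21r, which was not lower in deficient cells, also held a RUNX core, at -33 to -28, overlapping a forkhead match at -38 to -32, both on the strand opposite to the gene. Il7r held a STAT match at -142 to -134, and the windows of Il4ra, Il6ra, Il6st and Ifngr1 held none of the 3. A match is a run of letters and does not show that a factor binds.

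By a rule of likeness, the genes whose log2 CPM across the 9 libraries followed Il9r most closely, of 7319 genes averaging 10 CPM or more, were Itgb1 (r = 0.995), Samhd1 (r = 0.987) and the deleted Zbtb7b (r = 0.984). Itgb1 encodes the integrin beta-1 chain and Samhd1 a nucleotide hydrolase. These values are a description over 9 libraries in 3 groups, and Il9r itself stood at the lowest value in 3 of the 9.

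Il7r (chromosome 15, 9505788 to 9530176) encodes the chain for IL-7, a survival cytokine of resting T cells. Deficient cells had 198, 245 and 87.2 CPM, genetic controls 256, 447 and 286 CPM, and animal controls 539, 680.4 and 412 CPM. All 3 deficient libraries lay below all 6 controls, and deficient mouse 432614 was the lowest of the 9. Neither difference passed the test: -0.98 ± 0.37 from the genetic controls (SE, adjusted p = 0.370) and -1.72 ± 0.37 from the animal controls (adjusted p = 0.0769), a level 3.30-fold lower. The difference from the animal controls was called when genes averaging under 10 CPM were left out (adjusted p = 0.0379). Without deficient library 432614 the differences were -0.54 and -1.28 (adjusted p = 0.589 and 0.107). The genetic controls stood between the other groups, and their difference from the animal controls was -0.74 ± 0.37 (adjusted p = 0.769).

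Il4ra (chromosome 7, 125552120 to 125579474), the chain for IL-4 and with Il13ra1 for IL-13, had 429, 519 and 546 CPM in deficient cells, 398, 454 and 614 CPM in genetic controls and 474, 354 and 502 CPM in animal controls. The groups overlapped. Its 95% interval ran from -0.38 to 0.47 against the genetic controls (difference 0.04, adjusted p = 0.983) and from -0.25 to 0.60 against the animal controls (difference 0.18, adjusted p = 0.792). Il21r (chromosome 7, 125603429 to 125633570), the receptor of the helper cytokine IL-21, had 696, 510.5 and 662 CPM in deficient cells, 547, 299 and 411 CPM in genetic controls and 530.1, 447 and 619 CPM in animal controls. Its deficient libraries overlapped with both controls, and the differences of 0.60 ± 0.22 (adjusted p = 0.346) and 0.23 ± 0.22 (adjusted p = 0.767) did not pass the test. The common gamma chain itself, Il2rg, averaged 1001 ± 61.9 CPM in deficient cells, 979 ± 50.7 CPM in genetic controls and 1119.5 ± 119.6 CPM in animal controls (SD, n = 3 each), with overlapping libraries (adjusted p = 0.962 and 0.568). The other partner of Il7r, Crlf2, which with it binds TSLP, had 11.7, 9.06 and 11.7 CPM in deficient cells, 28.6, 31.7 and 28.7 CPM in genetic controls and 28.0, 14.1 and 24.5 CPM in animal controls. Its deficient libraries were below all controls, and the test was not passed (-1.47 ± 0.43, adjusted p = 0.212, and -0.99 ± 0.43, adjusted p = 0.406).

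Among the chains of the gp130 family, Il6ra (chromosome 3, 89864059 to 89913196), which binds IL-6 and hands it to gp130, had 54.0, 67.9 and 39.8 CPM in deficient cells. Genetic controls had 117, 121 and 128 CPM and animal controls 145, 119.7 and 120.0 CPM, and no deficient library reached a control library. The SD of log2 CPM over 3 genetic controls was 0.06, smaller than for all but 3.01% of the 7550 genes that averaged 10 CPM or more. Il6ra fell by 1.28 ± 0.24 on the log2 scale against the animal controls (SE, adjusted p = 0.0406), a level 2.43-fold lower. Against the genetic controls the difference was -1.21 ± 0.24, a level 2.32-fold lower, and missed the threshold (adjusted p = 0.0548); the controls differed by -0.07 ± 0.24 (genetic minus animal, adjusted p = 1). These p-values lie close to the threshold on either side. The call against the animal controls held in 1 of 9 fits that each left out 1 library, that without deficient 232614 (adjusted p from 0.0383 to 0.124 over the 9), while the difference stayed between -1.46 and -1.08. It was also lost without the trend (adjusted p = 0.142) and on the 6 compared libraries alone (adjusted p = 0.114). The difference from the genetic controls was called with genes under 10 CPM left out (adjusted p = 0.0403) and with log2(CPM + 1) (adjusted p = 0.0479).

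The promoter of Il6ra is shown beside that of Il9r because these were the chains called.
Il6ra, GRCm38.p6 chr3:89913197-89913446, minus strand: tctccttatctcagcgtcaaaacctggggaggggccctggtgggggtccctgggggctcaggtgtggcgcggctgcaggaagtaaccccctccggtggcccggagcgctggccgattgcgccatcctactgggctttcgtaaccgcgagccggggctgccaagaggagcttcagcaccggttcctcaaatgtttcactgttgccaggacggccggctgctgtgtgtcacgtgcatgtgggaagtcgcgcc
None of the 3 motifs was found in this window, so it has no capitals. The genes most like Il6ra over the 9 libraries, of 7318, were Igf1r (r = 0.981), Furin (r = 0.980) and Tmem243 (r = 0.974). Igf1r encodes the receptor of insulin-like growth factor and Furin a proprotein convertase.

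Il6st (chromosome 13, 112464070 to 112510086), the gp130 chain that carries the signal of IL-6 and IL-27, had 213, 175 and 302 CPM in deficient cells, 269.6, 376 and 288 CPM in genetic controls and 223, 211 and 271 CPM in animal controls. Libraries overlapped, and the differences were -0.46 ± 0.22 (adjusted p = 0.500) and -0.06 ± 0.22 (adjusted p = 0.964). Il27ra (chromosome 8, 84030294 to 84042589), the specific chain for IL-27, had 418, 447 and 379.8 CPM in deficient cells, 436, 431 and 325 CPM in genetic controls and 387, 349 and 361 CPM in animal controls. It had the narrowest 95% intervals of the 10 chains, from -0.24 to 0.38 against the genetic controls (adjusted p = 0.919) and from -0.13 to 0.49 against the animal controls (adjusted p = 0.696). Whether Il6ra differed from Il6st or Il27ra in its response was not tested.

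Il12rb1 (chromosome 8, 70808449 to 70821424), the chain shared by the receptors of IL-12 and IL-23, had 22.4, 22.9 and 0.943 CPM in deficient cells, 58.9, 79.4 and 29.6 CPM in genetic controls and 33.0, 51.4 and 90.8 CPM in animal controls. All deficient libraries lay below all controls, and that of mouse 432614 lay far below the other deficient libraries. Differences of -2.72 ± 1.09 (adjusted p = 0.415) and -2.77 ± 1.09 (adjusted p = 0.359) did not pass the test. Without deficient library 432614 they were -1.19 and -1.24 (adjusted p = 0.527 and 0.462).

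The class II chain Il10ra (chromosome 9, 45253837 to 45269149), which binds IL-10, had 36.7, 4.68 and 0.158 CPM in deficient cells. Genetic controls had 74.4, 119.5 and 38.6 CPM and animal controls 53.8, 82.1 and 160.0 CPM. The highest deficient library was just under the lowest control. In CPM its SD was smallest in deficient cells, 19.9, with 40.6 in genetic controls and 55.0 in animal controls. The SD of log2 CPM within deficient cells was 3.97, larger than for 99.6% of the 7550 genes averaging 10 CPM or more. That of Il12rb1 was 2.65, larger than for 99.0%. Both log2 spreads include the low values of deficient library 432614, 0.158 CPM for Il10ra and 0.943 CPM for Il12rb1. The differences, -4.54 ± 1.56 from the genetic controls (adjusted p = 0.302) and -4.89 ± 1.56 from the animal controls (adjusted p = 0.240), did not pass the test. Without deficient library 432614 they were -2.42 and -2.76 (adjusted p = 0.376 and 0.271).

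Deficient library 432614 held the lowest of the 9 values for Il6ra, Il7r, Il10ra and Il12rb1. It held the lowest of 9 for 10.9% of the 7550 genes, within the range over libraries (9.42% to 13.5%), and 11.4% of all genes lay at the lowest value there, close to the 11.3% in deficient 232614 and in animal control 232614. Myeloid markers, 6 of 16 measured, summed to between 116 and 169 CPM in deficient cells, between 96.7 and 512 CPM in genetic controls and between 101 and 143 CPM in animal controls. The highest sum was that of genetic control 8619, in which Lyz2, a myeloid lysozyme, had 257 CPM. That library also had the most Il9r, Il7r, Il6st, Il10ra and Il12rb1 of its group. The limma call of Il9r against the genetic controls held without it (adjusted p = 0.0384). It was lost without both that library and animal control 232614 (adjusted p = 0.0838). The part of myeloid transcripts in the levels of Il9r and the other chains was not tested.

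CD8 T cell markers, 8 of 9 measured, summed to between 969.6 and 992 CPM in deficient cells, between 133 and 321 CPM in genetic controls and between 252 and 287 CPM in animal controls, and Cd8a alone had 354 to 390.2 CPM in deficient cells and 13.2 to 50.9 CPM in the control libraries. Of these markers 5 rose against the genetic controls, Cd8a, Cd8b1, Nkg7, Runx3 and Xcl1, where 0.336% of all genes did. Xcl1 lay at the lowest value in all 3 genetic control libraries. Against the animal controls 2 rose, Cd8a and Nkg7, where 0.307% of all genes did. Ccl5, on the same list, was lower in every deficient library (19.2, 22.2 and 18.4 CPM) than in any control. It had 31.9, 81.1 and 25.6 CPM in genetic controls and 25.5, 29.2 and 31.8 CPM in animal controls, and was not called. Eomes overlapped with both controls. NK cell markers, 6 of 9 measured, summed to 59.3 to 126 CPM in deficient cells, 16.4 to 51.5 CPM in genetic controls and 24.9 to 33.5 CPM in animal controls, and none was called by limma (1 at an unadjusted p under 0.05 in each comparison, Prf1). Most of the sum in deficient cells was Prf1, a perforin gene that cytotoxic T cells also use, at 50.3, 84.2 and 109 CPM. Klrd1 was at the lowest value in all 3 deficient libraries, and Klrb1c and Klrk1 in 2 of 3. The median difference of the list was -0.64 against the genetic controls and -0.37 against the animal controls.

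B cell markers, 7 of 10 measured, summed to 694 to 912 CPM in deficient cells, 700.3 to 1102 CPM in genetic controls and 1314 to 1848 CPM in animal controls, most of it Ighm. Plasma cell markers, 3 of 6 measured, summed to 144 to 192 CPM in deficient cells, 236 to 369 CPM in genetic controls and 181 to 342 CPM in animal controls. Most of it was Xbp1, at 144, 137 and 180 CPM in deficient cells and 231, 280 and 255 CPM in genetic controls. Igj and Sdc1 overlapped between deficient cells and genetic controls. Naive T cell markers, all 10 measured, summed to 5762 to 6286 CPM in deficient cells, 5815 to 6428 CPM in genetic controls and 4626 to 5125 CPM in animal controls. By these sums deficient cells lay below the animal controls in B cell markers and above them in naive T cell markers, with no overlap. Their plasma cell sum lay below that of the genetic controls, with no overlap, through Xbp1. Erythroid cell and platelet markers, 6 of 8 measured, were at most 76.1 CPM in any library. The part of CD8 T, NK, B, plasma and naive T cell transcripts in the differences of Il9r, Il6ra, Il7r and the other chains was not tested.

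**Figure D2:**
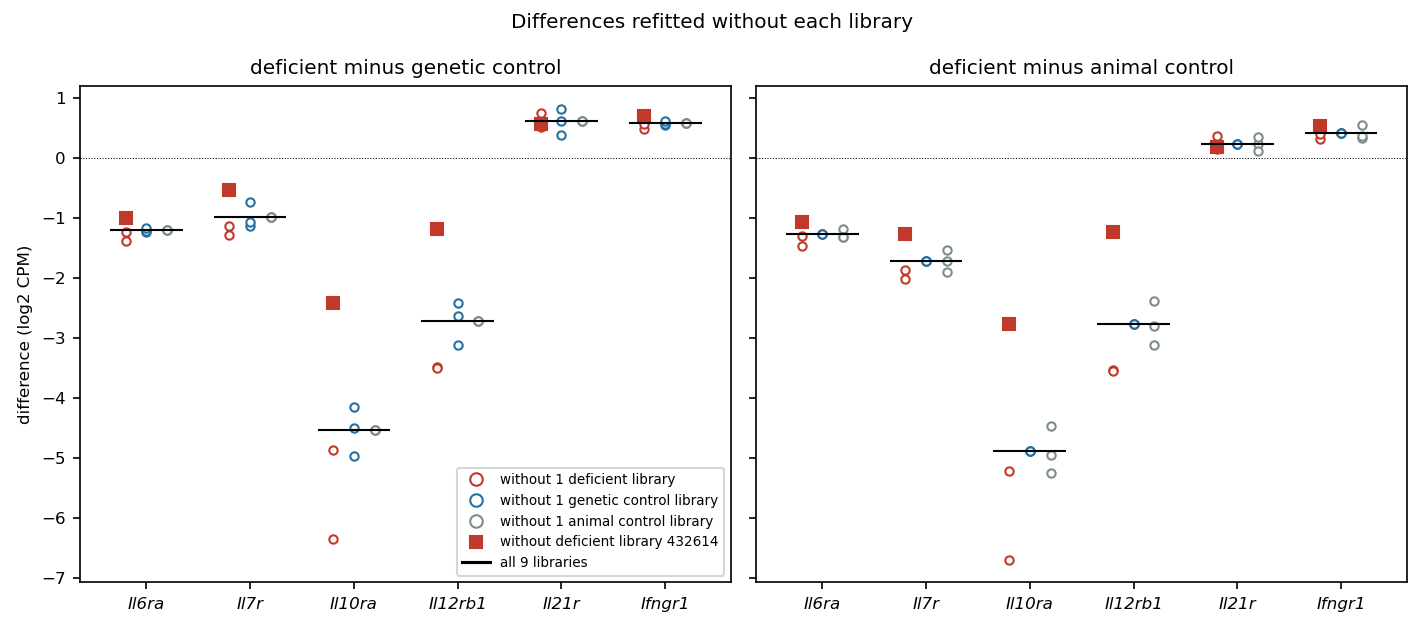
Difference in log2 CPM (vertical axis) between deficient cells and each control for 6 chains, fitted on all 9 libraries (black lines) and without each library in turn (symbols, coloured by the group of the library left out). Filled squares leave out deficient library 432614, where Il10ra moves to -2.42 and Il12rb1 to -1.19 against the genetic controls.

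Ifngr1 (chromosome 10, 19591949 to 19610229), the ligand-binding chain for interferon gamma, had 896, 800.4 and 665 CPM in deficient cells, 508, 513 and 559 CPM in genetic controls and 707, 521 and 554 CPM in animal controls. Deficient cells were above all genetic controls and overlapped with animal control 142114. The differences of 0.57 ± 0.14 (1.48-fold, adjusted p = 0.134) and 0.41 ± 0.14 (1.33-fold, adjusted p = 0.294) did not pass the test, with intervals from 0.25 to 0.89 and from 0.09 to 0.73. Its partner Ifngr2 averaged 45.7 ± 16.1 CPM in deficient cells, 55.5 ± 19.1 CPM in genetic controls and 56.1 ± 14.6 CPM in animal controls (SD, n = 3 each), and the partner of Il10ra, Il10rb, 127 ± 12.1 CPM in deficient cells, 109 ± 0.818 CPM in genetic controls and 127 ± 24.9 CPM in animal controls. Neither passed the test (adjusted p = 0.872 and 0.826 for Ifngr2, and 0.793 and 0.995 for Il10rb).

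**Figure D3:**
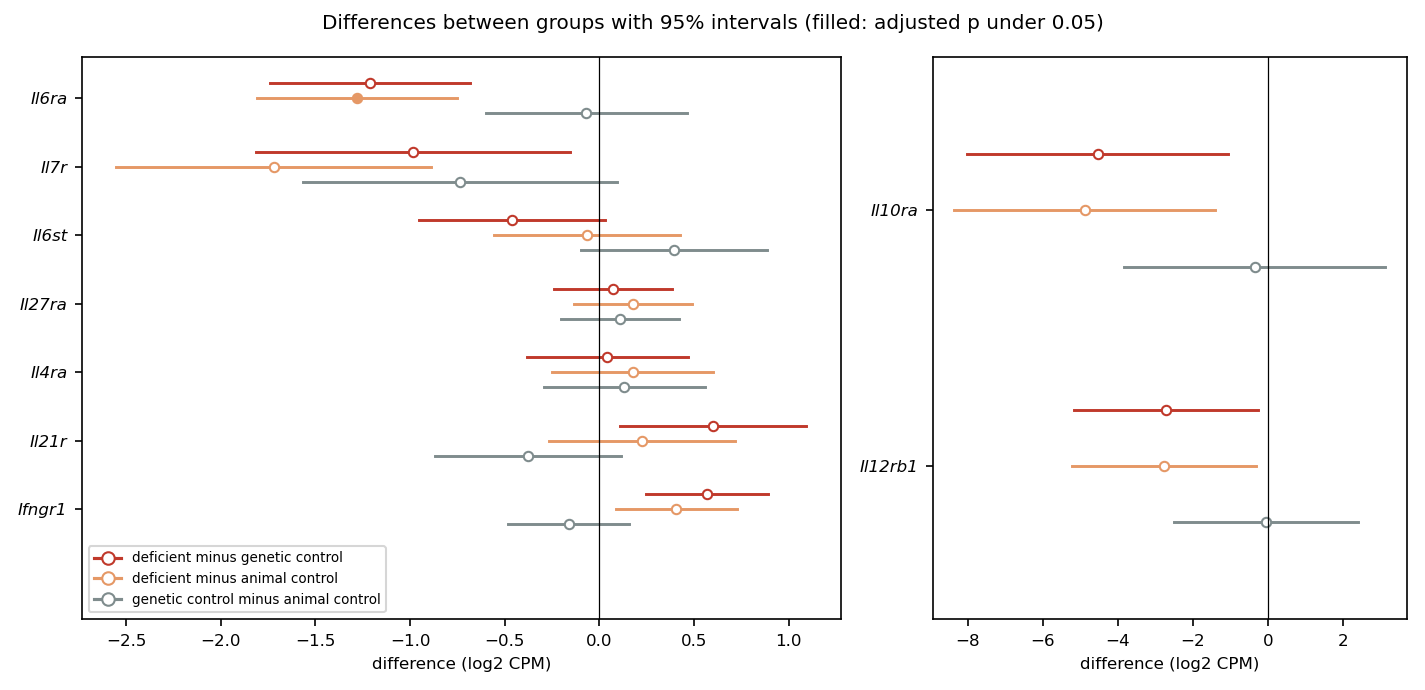
Difference in log2 CPM (horizontal axis) for 9 chains in the 3 comparisons, with 95% intervals from limma; filled points have an adjusted p under 0.05. The filled point is Il6ra against the animal controls (-1.28), and Il9r is left out because its fold rests on the table's lowest value.

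Between the controls none of the 10 chains passed the test with limma, with or without the trend (0.0365% of all genes did with it, 0% higher and 0.0365% lower), and none had an unadjusted p under 0.05 (6.62% of all genes). Every chain overlapped between genetic and animal controls, where 10.4% of all genes did not. The differences ran from -0.96 for Il9r to 0.40 for Il6st, with a median of -0.12.

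Per kilobase of exon, which allows chains to be set side by side, Ifngr1 was highest in all groups, at 276 ± 40.8 CPM per kb in deficient cells, 185 ± 9.89 in genetic controls and 209 ± 34.8 in animal controls (SD, n = 3 each). Il21r came next, at 187 ± 29.7 CPM per kb in deficient cells, 126 ± 37.3 in genetic controls and 160.0 ± 25.9 in animal controls. In deficient cells Il27ra (119 ± 9.60), Il4ra (82.9 ± 10.2), Il7r (37.9 ± 17.3) and Il6st (20.7 ± 5.87 CPM per kb) followed, and neighbours from Il7r down to Il6st overlapped within their SD. In animal controls Il7r came after Ifngr1 and Il21r, at 117 ± 28.8 CPM per kb, and in the other groups it came after Il4ra too, at 37.9 ± 17.3 CPM per kb in deficient cells and 70.7 ± 21.99 in genetic controls. Il10ra, Il6ra and Il12rb1 lay between 3.75 and 6.23 CPM per kb in deficient cells, between 13.6 and 22.2 in genetic controls and between 14.2 and 28.2 in animal controls, and Il9r was last in each group. In the controls Il6ra and Il12rb1 were within their spread of each other.

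Of the other class I and II receptor chains, 18 of 36 listed genes were measured. None was called against the genetic controls, where 0.869% of all genes were. Il2ra and Crlf2 had an unadjusted p under 0.05 there, 2 of 18, where 10.6% of all genes did. Against the animal controls 1 fell, Il2ra, the gene behind their CD25 gate, where 0.584% of all genes did. At an unadjusted p under 0.05 were 4 of 18 there and 11.9% of all genes. Il2ra had 551, 451 and 416 CPM in deficient cells, 788, 584 and 657 CPM in genetic controls and 800.4, 738 and 771 CPM in animal controls, and its fall of 0.71 ± 0.14 (SE, log2, adjusted p = 0.0497) held in 3 of 9 fits that each left out 1 library (without genetic controls 124 or 8619, or deficient 142114) and was lost without the trend (adjusted p = 0.399). The median difference of the list was 0.07 against the genetic controls and -0.24 against the animal controls, where the median of all genes was 0.04 in both.

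Of 11 JAK and STAT genes 1 was called lower against the animal controls, where 0.584% of all genes were. None was called against the genetic controls. At an unadjusted p under 0.05 were 3 of 11 against the genetic and 2 against the animal controls, where 10.6% and 11.9% of all genes did. The called gene was Tyk2, the kinase that works with Il12rb1, Il10rb and gp130. It had 32.4, 37.0 and 46.2 CPM in deficient cells, 101, 94.3 and 109.5 CPM in genetic controls and 86.8, 184 and 103 CPM in animal controls. No deficient library reached a control. Tyk2 fell by 1.63 ± 0.30 on the log2 scale against the animal controls (SE, adjusted p = 0.0414), while the difference of -1.41 ± 0.30 from the genetic controls missed the threshold (adjusted p = 0.0788). The call held in 1 of 9 fits that each left out 1 library, that without animal control 142114, with adjusted p up to 0.119 over the 9, and the difference stayed between -1.85 and -1.31; without the trend adjusted p was 0.137. Jak1, which the gamma-chain receptors, gp130 and both class II receptors use, averaged 1610.3 ± 28.5 CPM in deficient cells, 1397 ± 185 CPM in genetic controls and 1322 ± 116 CPM in animal controls (SD, n = 3 each; adjusted p = 0.491 and 0.279). Stat3, the main factor behind IL-6, IL-10 and IL-21, differed by -0.01 ± 0.13 and 0.07 ± 0.13, with 95% intervals from -0.30 to 0.28 and from -0.22 to 0.36.

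**Figure D4:**
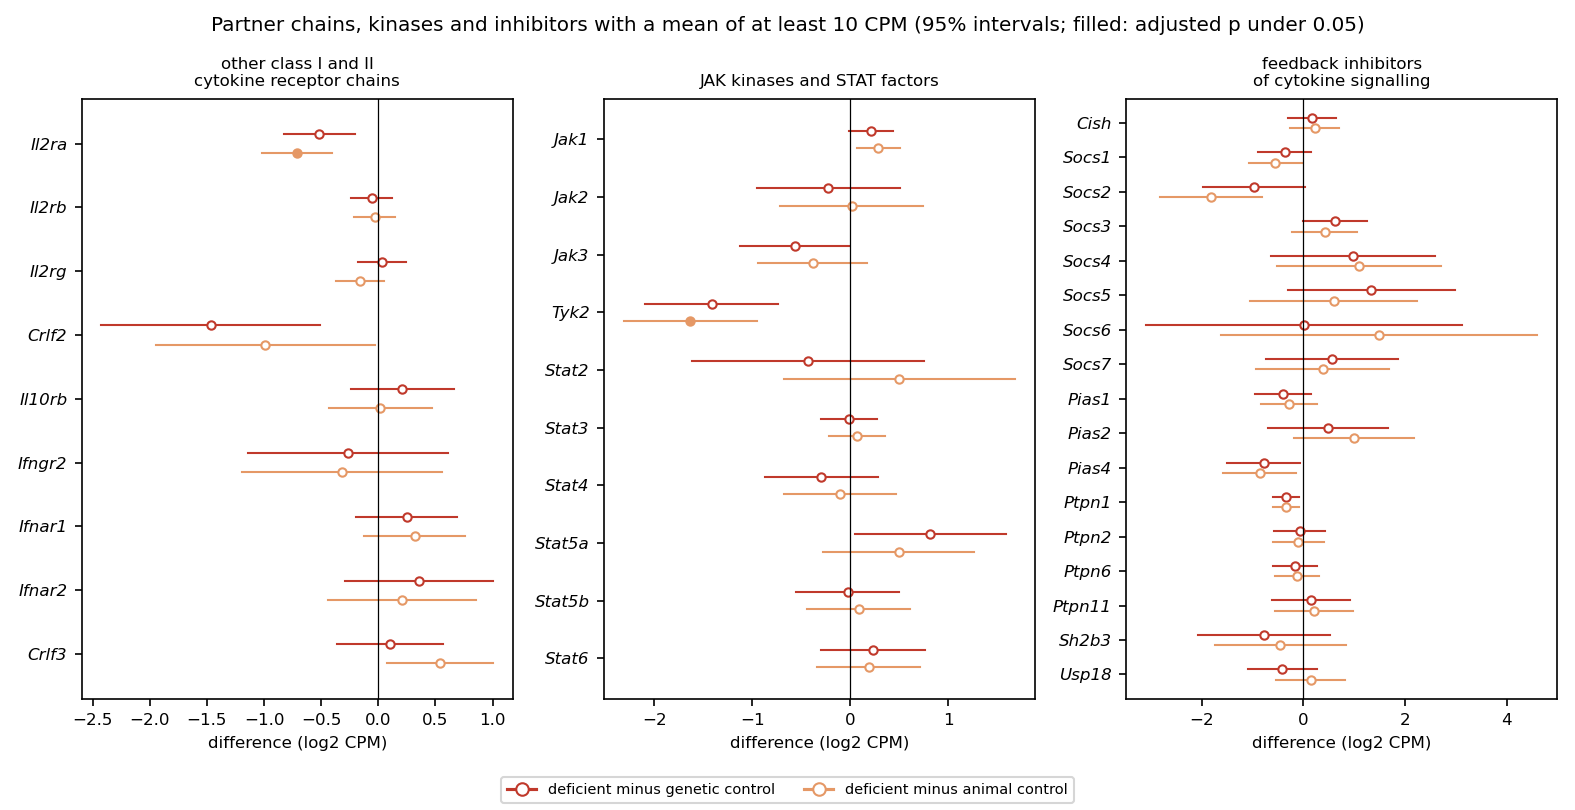
Difference in log2 CPM (horizontal axis) between deficient cells and each control, with 95% intervals. Shown are 9 other receptor chains, 10 JAK and STAT genes and 17 feedback inhibitors averaging 10 CPM or more by mean log2 CPM. Filled points have an adjusted p under 0.05. The filled points are Il2ra and Tyk2 against the animal controls.

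None of 18 measured feedback inhibitors was called by limma in either comparison. At an unadjusted p under 0.05 were Pias4 and Ptpn1 against the genetic controls, and these with Socs1 and Socs2 against the animal controls, that is 2 and 4 of 18, where 10.6% and 11.9% of all genes did. Socs2, which dampens STAT5 signals, had 12.6, 30.4 and 46.4 CPM in deficient cells, 55.0, 53.1 and 45.3 CPM in genetic controls and 70.7, 111 and 97.9 CPM in animal controls; it was below all animal controls (-1.81 ± 0.45, adjusted p = 0.121) and overlapped with the genetic controls.

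Of 19 ligand genes 5 were measured (Ebi3, Il10, Il4, Lif and Osm) and none was called by limma. Ebi3, a subunit of IL-27, had 0.0120, 4.26 and 0.00457 CPM in deficient cells, 15.5, 27.4 and 4.26 CPM in genetic controls and 21.5, 22.9 and 15.5 CPM in animal controls (adjusted p = 0.210 and 0.152; both unadjusted p under 0.05). Osm had an unadjusted p under 0.05 against the animal controls alone (adjusted p = 0.406). That made 1 and 2 of 5 ligands, where 10.6% and 11.9% of all genes did. Il10 and Il4 were under 5 CPM in every library.

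Of 14 factors known to act on Il7r, 1 rose against the genetic controls, where 0.336% of all genes did. None was called against the animal controls. At an unadjusted p under 0.05 were 5 and 4 of 14, where 10.6% and 11.9% of all genes did. The factor that rose was Runx3, a factor of CD8 T cells that is also on the CD8 marker list. It had 101, 90.3 and 97.1 CPM in deficient cells, 17.9, 19.7 and 34.9 CPM in genetic controls and 91.7, 53.9 and 66.1 CPM in animal controls. Its rise of 2.05 ± 0.33 (SE, log2, adjusted p = 0.0240) held in 3 of 9 fits that each left out 1 library (without genetic control 8800, or animal controls 142114 or 232614) and was lost without the trend (adjusted p = 0.0679), and its difference from the animal controls was 0.48 ± 0.33 (adjusted p = 0.647).

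With the mouse as a fixed term over the 6 libraries of the shared mice, no gene was called between deficient cells and animal controls. With that term 1395 genes had an unadjusted p under 0.05. Without the term 52 genes were called on the same 6 libraries and 122 on all 9. Under this replicate block Il6ra and Il9r had adjusted p = 0.312 and 0.280, and Tyk2 and Il2ra 0.312 and 0.284. With the mouse as a random term over all 9 libraries 148 genes were called, Il6ra and Il9r among them.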

How the data were processed

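The authors deposited log2 CPM values for 13702 rows; the submitters' processing notes name bcl2fastq (1.8.4), STAR (2.4.0h), limma with no version, and the build mm10. The sources used here do not give the counting tool, annotation or filter. The unit was read from the values. Linear values sum to 999252 to 999256 per library and all columns share the lowest (-7.77) and highest (13.42) log2 value, as quantile-normalized log2 CPM would. After 4 duplicate rows were dropped, 13698 genes were fitted as deposited with limma 3.58.1 (R 4.3.3; package data.table, version 1.17.8): limma-trend, 3 group means over 9 libraries, two-sided contrasts, Benjamini-Hochberg at 0.05. The script was tested on simulated data. With 3 against 3 libraries an exact permutation test cannot go below p = 0.1, so none is given. The chains and the gene lists were chosen with earlier results of these data known. Named beside the chains were list genes that were called and the partner chains Il2rg, Il10rb and Ifngr2. Chosen after their values were seen were Jak1, Stat3, Crlf2, Lyz2, Cd8a, Nkg7, Prf1, Klrd1, Klrb1c, Klrk1, Ighm and the genes given at an unadjusted p under 0.05. So were Ccl5, Eomes, Xbp1, Igj, Sdc1, Ctla4, Ikzf2, Ikzf4 and Tnfrsf18. Likeness is Pearson's r of log2 CPM, for called chains, without Gm and Rik names. The design text says deficient and animal control cells came from the same mice. After group means were removed, libraries of the same mouse correlated at 0.0483, 0.0202 and 0.0170 over 7550 genes. Coordinates and exon lengths are from GENCODE M21 (GRCm38), promoters from RefSeq (GRCm38.p6). Alternatives were no trend, a robust prior, a minimum mean of 10 CPM, log2(CPM + 1), only the compared libraries, each library left out, 2 libraries left out together, and the mouse as a block. A gene and a gene list were left out and are not reported here.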

Additional observations from a re-analysis of the deposited data

How the results depend on the processing

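Over all settings the 10 chains gave 487 alternative values: 455 kept direction and side of the threshold, 17 lost a call, 3 gained one and 12, none of them called, changed sign. No call was turned round. Those 12 came from leaving out 1 library; over the 9 such fits the ranges were -0.093 to 0.22 for Il4ra and -0.067 to 0.14 for Il27ra (deficient against genetic controls), -0.28 to 0.11 for Il6st (deficient against animal controls), and, for genetic against animal controls, -0.045 to 0.27 for Il4ra, -0.11 to 0.024 for Il6ra, -0.73 to 0.083 for Il10ra and -0.40 to 0.35 for Il12rb1. Tyk2 between the controls also changed sign (-0.44 to 0.10 without 1 library, 0.15 without genetic control 8619 and animal control 232614 together); the cause was not tested.

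Chains called, 1 against genetic controls and 2 against animal controls, were 0 and 1 on the 6 compared libraries alone, 0 and 0 without both genetic control 8619 and animal control 232614, and 1 and 1 without the trend; without 1 library they ranged from 1 to 1 and from 1 to 2, and between the controls from 0 to 0. Chains called against both controls numbered 1, but 0 on the compared libraries alone and 0 without those 2 libraries, and from 1 to 1 without 1 library. Il9r was under the 10 CPM minimum, so with it the chain called in both was Il6ra, as with log2(CPM + 1). Genes called, 119, 122 and 5 in the 3 comparisons, were 22, 52 and 3 on the compared libraries alone and 21, 27 and 1 without the 2 libraries; without 1 library they ranged from 48 to 93, from 58 to 115 and from 4 to 10. Counts moved by over 1.5 times without any deficient or genetic control library or animal control 432614 (against genetic controls), without any animal control library (against animal controls), and without genetic control 124 (between the controls). Between the controls 32 were called without the trend, the cause of which was not tested. With the mouse as a fixed replicate block 0 genes and 0 chains were called; as a random block 1 and 2 chains were called, and no chain's call changed. Fewer libraries enter the smaller fits. Depth is unknown, so levels near 0.00457 CPM show no more than that a gene was at the table's lowest value.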
